A study of Homo sapiens with 2 samples.

Results

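In the TCF3::HLF-HiChIP of t(17;19) leukemia cells, 701 of 49245 interactions stood alone, in the sense that both of their ends took part in no other interaction of the list. An end, or anchor, is a 5-kb bin of the genome. For every bin, the interactions it takes part in were counted, and an interaction was called isolated when each of its 2 bins was counted in exactly 1. The 701 isolated interactions were 1.42% of the list (Wilson 95% interval 1.32 to 1.53), and their 1402 bins were part of 53535 anchor bins, of which 41745 were used by 1 interaction only. Most interactions, 40343, joined a single-use anchor to a bin with more partners, and 8201 had no single-use anchor. Just outside the threshold lay 2337 interactions whose busiest bin took part in 2.

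The cells were HAL-01, a human B cell precursor leukemia line that carries the t(17;19) translocation. They expressed Cas9GFP, and an sgRNA had removed the wild-type TCF3 (wt-TCF3) allele, so that the antibody against E2A (CST #12258) precipitated the fusion protein and not wt-TCF3. The knockout line was a clone. There were 2 biological replicates of this 1 condition, with no control cells or control antibody among the data analysed here. The list holds contacts and no expression values, so the loss of wt-TCF3 cannot be checked with it. The authors merged both replicates before calling interactions, so no value below has a replicate error, and intervals cover counting error only.

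TCF3::HLF joins the activation domains of TCF3, an E protein of early B cells also known as E2A, to the basic leucine zipper of HLF. HLF belongs to the PAR bZIP factors, which bind as dimers to a palindrome, TTACGTAA, and tolerate changed central bases. HiChIP combines the precipitation of chromatin bound by a protein with the ligation of pieces that lie close together in the nucleus. In these data the ligation followed the precipitation. The read pairs that join 2 places are counted, and are here called contacts. Places with many partners are often spoken of as hubs, and an isolated interaction is the opposite arrangement.

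The motif was searched as TTACGTAA, its own reverse complement, and as TTATGTAA, read on the other strand as TTACATAA. Isolated anchors held 32 sites of TTACGTAA, each in a different interaction. The sites of 7 of the 10 such interactions with the most contacts, and the site of an interaction with CDK2 described below, are printed in capitals with 11 bases on either side, on the plus strand of hg38. They are shown because they are the sequences that the HLF part of the fusion could recognize inside these anchors.

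chr12:17098011-17098040, intergenic, joined to a bin in LMO3 and MGST1: tactgtgtgagTTACGTAAgcagatgactt
chr16:59074635-59074664, intergenic: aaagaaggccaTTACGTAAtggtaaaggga
chr7:116899475-116899504, intron of CAPZA2, joined to CAV2: ggcattagtcgTTACGTAAtatgtagtcat
chr5:89191914-89191943, intergenic, joined to a bin beside MEF2C: aaatcctggatTTACGTAAagcagtgtagt
chr2:131627640-131627669, intergenic: tttcgtgcagaTTACGTAAtgcaaaatttt
chr3:63607679-63607708, intron of SYNPR: aaactggtcagTTACGTAAttcacaacagc
chr11:17892597-17892626, intron of SERGEF: tgagtgatttaTTACGTAAcattactgtgg
chr12:55816041-55816070, intron of SARNP, joined to the CDK2 start site: gtcagaggactTTACGTAAaagttacttat

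Of the 32 sites, 15 lay between genes and 12 in introns. In 12 of the 32 sites a purine preceded and a pyrimidine followed TTACGTAA, a form palindromic only where these outer bases are complementary. These were ATTACGTAAT at 3 sites, GTTACGTAAC at 2, ATTACGTAAC at 3 and GTTACGTAAT at 4. The sites in CAPZA2, SYNPR and SERGEF and the intergenic sites of chromosomes 16 and 2 printed above were among them, and those joined to LMO3, to the MEF2C side and to CDK2 were not.

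Isolated did not mean remote. The bin nearer to other anchors had its nearest other anchor at a median of 10 kb, and the farther bin at a median of 45 kb. In 261 interactions (37.2%) a bin lay directly beside another anchor. In 173 (24.7%) both bins were more than 25 kb from any other anchor, and in 46 (6.56%) both were more than 100 kb away. Another interaction overlapped the interval between the bins in 675 of the 701 (96.3%), and 545 (77.7%) lay wholly inside another interaction, against 88.9% of the whole list. Close copies of the same contact were few. In 132 (18.8%) another interaction joined bins within 50 kb of both of their bins, against 29.1% of those just outside the threshold and 53.7% of all interactions. The median number of overlapping interactions was 10, against 13 just outside and 26 over all. Members were chosen by how often their bins occur in this list, so these distances and numbers, and the contact counts and P values below, are a description without a test.

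**Figure D1:**
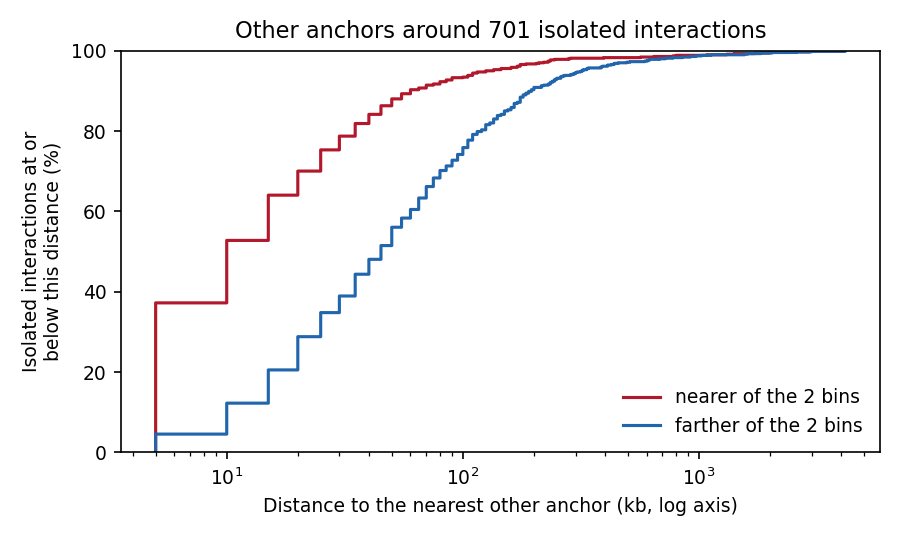
Cumulative share of the 701 isolated interactions (y axis, %) by the distance from a bin to the nearest anchor of another interaction (x axis, kb, log scale), for the nearer bin (red) and the farther bin (blue). The curves cross the middle of the y axis at 10 kb and 45 kb.

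The most remote members fell into places of different kinds. The pair at chr1:125070001-125075000 and chr1:125120001-125125000 had its nearest other anchor at 4115 kb and held 13 contacts. Its bins lay 110 and 59.6 kb from a stretch of the assembly without sequence, and the pairs at chr2:91905001-91910000, chr21:10445001-10450000 and chr13:16175001-16180000 were also within 1 Mb of such a stretch. Others lay farther than 1 Mb from any such stretch, in a gene desert or near genes. A pair 70 kb apart at chr7:109700001-109705000 and chr7:109770001-109775000 had 43 contacts, with its nearest other anchor at 1080 kb. The nearer end of its nearest protein-coding gene, IMMP2L, lay 887644 bases away. A pair at chr2:164985001-164990000 and chr2:165280001-165285000 had 31 contacts, with its first bin 29476 bases from SLC38A11. Its second bin lay inside SCN2A, a neuronal sodium channel gene, with 1310 kb between that bin and the next anchor. On the X chromosome, chrX:142235001-142240000 and chrX:142385001-142390000 were joined by 23 contacts near MAGEC2, a cancer-testis antigen gene, with TTACGTAA in the second bin and the nearest other anchor at 1410 kb. None of these 3 pairs was overlapped by any other interaction. An intergenic pair of chromosome 5, 115 kb apart with 13 contacts, had its nearest other anchor at 1725 kb. The nearest protein-coding gene was CDH12, a cadherin gene.

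Isolated interactions carried fewer contacts than the others, but not by much. Their median was 20 contacts (order-statistic 95% interval 20 to 21), with quartiles of 15 and 27 and a range from 7 to 56. The median was 22 in the interactions just outside the threshold, 24 in those with 1 single-use anchor and 25 in those with none. At least 30 contacts were held by 117 (16.7%), against 27.2% of those with 1 single-use anchor and 31.8% of those with none. Fewer than 12 contacts were seen in 31 isolated interactions (4.42%), in 33 of the 40343 with 1 single-use anchor and in 2 of the 8201 with none. The largest contact count of the other interactions was 615, and 845 of them (1.74%) had more than the isolated maximum of 56.

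Distance hardly separated the classes. Isolated bins lay a median of 230 kb apart (210 to 260), against 255 kb over the whole list, with 161 interactions (22.97%) under 100 kb and 103 (14.7%) above 1 Mb. Within each band of distance the isolated interactions had a lower median contact count than the whole list. From 50 to 100 kb it was 22 against 26 over all interactions, and from 100 to 250 kb it was 20 against 24. From 250 to 500 kb the values were 22 and 23, from 500 kb to 1 Mb 20 and 22, and above 1 Mb 19 and 21. Interactions just outside the threshold had medians of 24, 23, 21, 20 and 20 in these bands. Against them the isolated median was therefore higher from 250 to 500 kb and equal from 500 kb to 1 Mb. The median P value of FitHiChIP, which scores a contact count against a background for distance and coverage, was 5.16e-08 against 9.12e-09 with 1 single-use anchor. A q-value of 0.001 or more, close to the authors' threshold of 0.01, was found for 135 (19.3%) against 13.9% of the list, and 429 (61.2%) had a q-value under 1e-05. FitHiChIP merges significant bin pairs that lie next to each other, and 686 isolated interactions (97.9%) were single bin pairs, against 92.3% of the list.

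**Figure D2:**
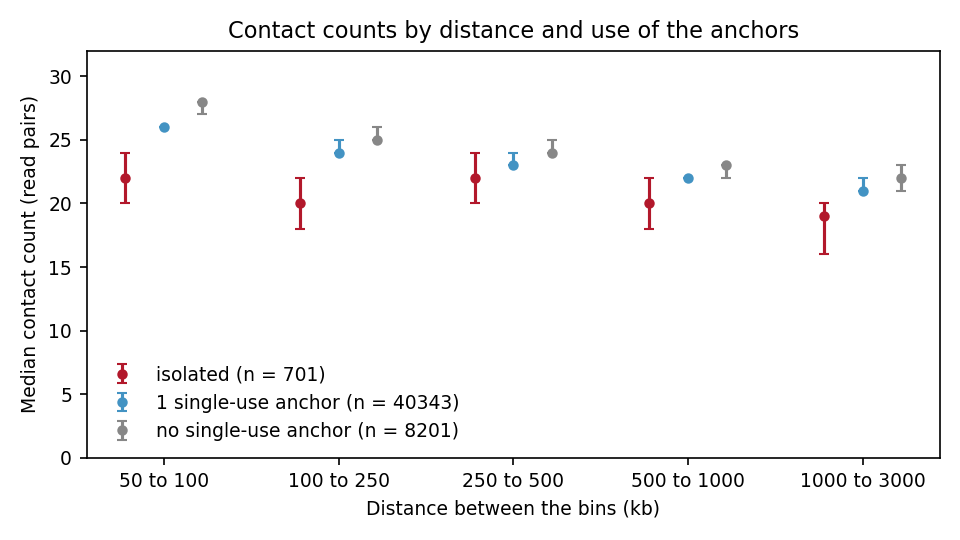
Median contact count (y axis, read pairs) with its 95% order-statistic interval (bars) by distance between the bins (x axis, kb), for isolated interactions (red), those with 1 single-use anchor (blue) and those with no single-use anchor (gray). Red points lie below the others in each band, from 22 at 50 to 100 kb to 19 above 1 Mb.

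The isolated interactions with the most contacts were spread over several chromosomes, and most had a protein-coding start site in neither bin. The same held for 77.3% of all isolated interactions and 76.0% of the list. The highest count, 56 (Poisson 95% interval 42.3 to 72.7), was reached by a pair. In the first, chr15:101560001-101565000 and chr15:101665001-101670000 joined intergenic sequence to TARS3, which encodes a threonyl-tRNA synthetase. In the second, chr6:35615001-35620000 and chr6:35710001-35715000 both lay inside FKBP5, which encodes a co-chaperone of the glucocorticoid receptor. Next came chr2:29080001-29085000 and chr2:29195001-29200000 with 55 contacts, where the second bin overlapped CLIP4 and ALK, a receptor tyrosine kinase gene. The smallest P value of FitHiChIP, 4.27e-39, belonged to 54 contacts between HDDC2 and a bin 480 kb away. The nearest protein-coding gene to that bin, at 1161 bases, was NCOA7, a nuclear receptor coactivator gene. Among the next by contacts were TRAPPC12 with 50, FRMPD1 with 49, WWP1 and RMDN1 with CPNE3 with 46, HLA-DMA with 45 and an intergenic pair of chromosome 15 with 44. HLA-DMA helps load peptides on class II molecules, and its bin also lay within 10 kb of the start site of BRD2, a bromodomain protein gene. Its partner lay 405 kb away, 19714 bases from HLA-DRB5.

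Above 1 Mb the counts were lower but did not vanish. COG7, a Golgi complex gene on chromosome 16, was joined over 1905 kb by 43 contacts to intergenic sequence. A pair of chromosome 4 spanned 2030 kb with 42 contacts, and a pair of chromosome 17 spanned 2490 kb with 41. The first bin of the latter lay 2042 bases from SUMO2, which encodes a small ubiquitin-like modifier. COL23A1, a collagen gene, had 40 over 1205 kb, and the start site of FANCL, a ubiquitin ligase gene of the Fanconi anemia pathway, had 39 over 1035 kb. By the sum over merged neighbors, the largest value was 67, for DUSP1 and ERGIC1 with 26 contacts in the bin pair listed. It was followed by 64 for a pair near GATA2, 63 inside MBTD1, 61 for PPP1R12B with SYT2 and 57 for ATAT1 with FLOT1. The GATA2 pair, chr3:128425001-128430000 and chr3:128520001-128525000, had 33 contacts in the listed bin pair, with the second bin 26800 bases from this stem cell factor gene.

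Protein-coding start sites were no more frequent in isolated anchors than close by. They lay in 178 of 1402 isolated anchors (12.7%; Wilson 95% interval 11.1 to 14.5), in 12.6% of 2506 bins 25 kb away that were no anchors, and in 12.2% of the other single-use anchors. The interval of the difference from the bins 25 kb away ran from -2.04 to 2.31 percentage points. All 3 shares were above the 9.06% of all 5-kb bins of the genome. Both bins held a start site in 19 interactions (2.71%), 1 bin in 140 (19.97%) and neither in 542 (77.3%).

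Of the interactions between 2 start sites, those with the most contacts are given with the known roles of their genes. RAB5A, a small GTPase of early endosomes, and KAT2B, a histone acetyltransferase, were joined over 175 kb by 37 contacts. PTDSS2, which makes phosphatidylserine, was joined to a bin with CDHR5 and SCT by 36, and DIABLO, which promotes apoptosis, to CLIP1, a microtubule-binding protein gene, by 34. ZNF484 and FGD3 had 29, and RET, a receptor tyrosine kinase gene, had 27 with ZNF487. DUSP1, a phosphatase of MAP kinases, had 26 with ERGIC1. LMF1 and NLRC3 were 2705 kb apart with 25 contacts. The chemokine gene CCL5 with LYZL6, 2 start sites of MAOA, which encodes a monoamine oxidase, and RAB3IP with MYRFL had 24 each. Poisson intervals of these counts overlapped widely, so that their order is not set by these data.

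With a start site in 1 bin, TRAPPC12 came first at 50 contacts, followed by CFAP92 with 44 and USP21, a deubiquitinase gene, with 42. APBA3 and UHRF2 had 40, FANCL and the synaptic scaffold gene SHANK3 39, FRY 37, and EDC3, a gene of mRNA decapping, and CEACAM6, an adhesion molecule gene, 35. Some partner bins lay in gene bodies, that of FRY in FRY itself, that of APBA3 in PIAS4, that of USP21 in ARHGAP30, that of SHANK3 in PPP6R2 and that of CEACAM6 in CEACAM3. Those of TRAPPC12, CFAP92, UHRF2, FANCL and EDC3 lay outside protein-coding genes.

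Few genes of any kind had a start site in an isolated anchor. Over all 19962 protein-coding genes, 188 (0.942%) had a start site in an isolated anchor, and 5319 (26.6%) in any anchor. Among 32 genes of the B lineage and the pre-B receptor, 0 had one in an isolated anchor and 14 in any anchor. For stem cell and leukemia factors these numbers were 0 and 10 of 30, for apoptosis genes 0 and 13 of 29, for synaptic and neuronal adhesion genes 0 and 10 of 48, and for ribosomal protein genes 0 and 24 of 84. T and NK cell genes gave 0 and 6 of 28, and myeloid genes 0 and 6 of 26. PAR bZIP and C/EBP genes gave 0 and 2 of 10. With 0.942% of all genes in isolated anchors, a count of 0 among lists this short does not set any of them apart. The lists were chosen with earlier results of these data known.

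The members of these lists that did reach an isolated anchor were few. CDK2, a cyclin-dependent kinase gene of S phase, was the only one of 34 cell cycle genes. It shared its bin with PMEL and was joined over 150 kb by 17 contacts to the start sites of ORMDL2 and SARNP, in the bin that holds the TTACGTAA site printed above. KMT2C, a histone H3 lysine methyltransferase gene, was the only one of 49 chromatin regulators, with 11 contacts over 1465 kb to DPP6. Of 509 ZNF genes, 6 had a start site in an isolated anchor (1.18%), namely ZNF484, ZNF487, ZNF497, ZNF554, ZNF583 and ZNF584, with 15 to 29 contacts. The last 4 lie on chromosome 19. Keratin genes had 0 of 55, and olfactory receptor genes 1 of 415.

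Within 10 kb of an isolated anchor lay a start site of 632 of the 19962 protein-coding genes and of 1 of the 32 B-lineage genes, which is close to the share of all genes. This gene was BTK, the tyrosine kinase of B cell receptor signaling, with 38 contacts over 75 kb between its own gene body and ARMCX4. MEIS1, a homeobox gene of stem cells and acute leukemia, had 17 contacts over 1375 kb. CEBPE, a granulocyte factor gene of the C/EBP family, lay within 10 kb of 20 contacts that joined SLC7A8 and RNF212B. RPL13A, a ribosomal protein gene, lay within 10 kb of an interaction with 23 contacts over 135 kb. NRXN3, which encodes the synaptic adhesion protein neurexin, had 23 contacts over 145 kb inside the gene. MEF2C was reached from a greater distance. The pair chr5:88915001-88920000 and chr5:89190001-89195000 had 28 contacts, with its first bin 10744 bases from the MEF2C gene. Its second bin, with the TTACGTAA site printed above, lay 285744 bases from the gene.

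The HLF motif was somewhat more frequent in isolated anchors than in the non-anchor bins around them. It was found in 445 of 1402 isolated anchors (31.7%; Wilson 95% interval 29.4 to 34.2) and in 27.02% of the bins 25 kb away. The difference was 4.73 percentage points (Newcombe 95% interval 1.75 to 7.74), with 16 chromosomes higher and 7 lower. Against bins 10 kb away it was 4.60 points (1.63 to 7.61), and against bins 50 kb away 1.86 points (-1.15 to 4.92), an interval that holds 0. These comparisons have no test, since the replicates were merged, and bins of 1 genome are not replicates of the condition. Bins that were anchors of any interaction were left out of the flanking bins, and anchors with more partners held the motif more often. The authors also called interactions with peaks of the same precipitation as reference. The other single-use anchors compared below were by definition all joined to a bin with more partners. The part of these choices in the differences, and in those of the other single-use anchors and the moved pairs below, was not tested.

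The share was 3.35 points (0.924 to 5.87) above that of the other single-use anchors, which had 28.4%. It was below that of anchors with more partners, where it rose from 34.3% with 2 to 4 interactions to 49.7% with 5 to 9 and 66.7% with 10 or more. All 5-kb bins of the genome had 30.6%, within the interval of the isolated anchors. TTACGTAA alone was in 2.28% of isolated anchors (1.62 to 3.20), 1.40% of the bins 25 kb away and 1.81% of the genome, so that these shares could not be told apart from the genome's at this number of bins. In anchors of 10 or more interactions it was in 8.35%.

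At the level of the interaction, 371 (52.9%) had the motif in at least 1 bin, against 45.7% of 1153 pairs moved by 25 kb as a whole onto bins that were no anchors. The difference was 7.22 points (2.53 to 11.9). Both bins held it in 74 (10.6%), against 7.81% of the moved pairs. Just outside the threshold 52.2% had it in at least 1 bin, close to the isolated share, and over the whole list 66.8%.

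A core of the motif of CTCF, the factor that halts loop extrusion, was searched as CCA, any 2 bases, AG, any 2 bases and GGC on both strands, a search chosen after the data had been seen. It was in 14.3% of isolated anchors and in 14.0% of the bins 25 kb away. Both bins held it in 15 interactions. In 12 of these each bin had 1 orientation, with 2 pairs convergent, the arrangement known from CTCF loops, 3 divergent and 7 in the same direction. The convergent share of 16.7% (Wilson 95% interval 4.70 to 44.8) and the 28.9% of the whole list could not be told apart at this number.

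Isolated anchors lay in protein-coding genes less often than other anchors. Gene bodies covered 686 of the 1402 (48.9%), 57.1% of the other single-use anchors and 48.9% of the bins 25 kb away. The difference from other single-use anchors was -8.15 points (-10.8 to -5.49), with 4 chromosomes higher and 19 lower. In 229 isolated interactions (32.7%) neither bin was in such a gene, against 22.3% of all. The median G+C content of isolated anchors was 41.6%, against 41.0% in other single-use anchors. Bins of at least 50% G+C were 14.7% of isolated anchors, 13.9% of the bins 25 kb away and 9.98% of other single-use anchors.

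Isolated interactions were frequent beside gaps of the assembly, the runs of at least 10 kb without known sequence at chromosome ends, beside centromeres and in other places. This distance was examined after the data had been seen. A gap lay within 1 Mb of 130 isolated interactions (18.5%; Wilson 95% interval 15.8 to 21.6), of 10.3% of those just outside the threshold and of 4.92% of the list. Within 100 kb the shares were 5.42% and 0.591%. Of the interactions within 100 kb of a gap 13.1% were isolated, and this share went down with distance, to 4.32% from 0.1 to 1 Mb, 1.76% from 1 to 5 Mb, 1.18% from 5 to 20 Mb and 1.04% beyond. The list itself was thinner near gaps, with 8.12 interactions per Mb within 100 kb and 18.1 per Mb beyond 20 Mb, while the isolated interactions numbered 1.06 and 0.188 per Mb.

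**Figure D3:**
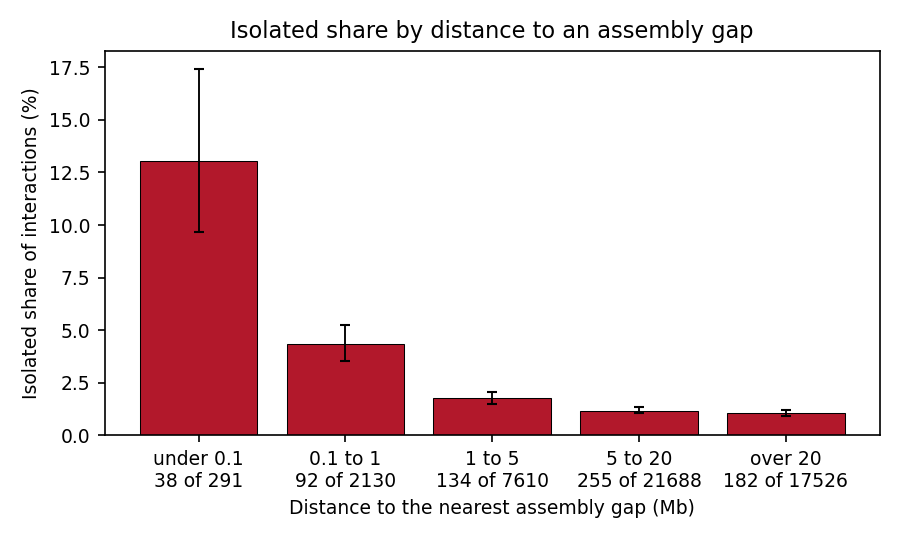
Share of interactions that were isolated (y axis, %, with Wilson 95% intervals) by distance from the nearer bin to the nearest assembly gap of at least 10 kb (x axis, Mb), with the numbers of isolated and of all interactions under each bar. The share falls from 13.1% to 1.04%.

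The members near gaps differed from the rest in their genes more than in their contacts. Within 1 Mb of a gap 30.4% of the isolated anchors lay in gene bodies, and farther away 53.2%. For other single-use anchors the shares were 56.2% near gaps and 57.1% away from them. The median contact count was 19 near gaps and 20 farther away. The motif was in 29.2% and 32.3% of the anchors, and without the interactions near gaps the difference from the bins 25 kb away was 4.81 points (1.51 to 8.16). Some interactions named above for their contacts were also near a gap. They include those of TARS3 (311 kb from a gap), SHANK3 (133 kb), PTDSS2 (410 kb), WWP1 with CPNE3 (751 kb) and the chromosome 4 pair spanning 2030 kb (483 kb).

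Few isolated interactions shared sequence between their bins above the minimum set here. Sharing of at least 50 stretches of 31 bases on either strand was seen in 17 isolated interactions (2.43%; Wilson 95% interval 1.52 to 3.85), in 0.654% of the list and in 1.47% of the moved pairs. The stretches were counted with overlap, and the longest identical run in each of the 17 ranged from 40 to 646 bases. These numbers do not give the identity over the whole bins, which were not aligned. Of the 17, 8 were among the 130 interactions near a gap (6.15%) and 9 among the other 571 (1.58%). At 10 or more such stretches the shares were 16.2% (10.8 to 23.4) near gaps and 13.8% (11.2 to 16.9) farther away, with overlapping intervals. Only 13 interactions of the list shared 500 or more, and 3 of these were isolated. A pair of chromosome 10, chr10:46745001-46750000 and chr10:47590001-47595000, shared 3766 with a longest identical run of 646 bases on opposite strands and had 11 contacts. A pair with its second bin in PSPC1 on chromosome 13 shared 1839 and had 35 contacts, and the remote pair at chr13:16175001-16180000 shared 1239 and had 25. Read pairs of such bins can be placed on either copy. Among the interactions named above, CCL5 with LYZL6 shared 56 such stretches, whereas FKBP5 shared 2 and TRAPPC12, HDDC2, RAB5A with KAT2B, CDK2 and MEF2C were below 50. The part of shared sequence in the contact counts was not tested.

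The share of isolated interactions differed between chromosomes. It was highest on chromosome 19, with 40 of 678 interactions (5.90%; Wilson 95% interval 4.36 to 7.93), followed by X with 3.32%, 16 with 3.16% and 20 with 2.78%. It was lowest on chromosome 4, with 22 of 2746 (0.801%). By length, isolated interactions numbered 0.682 per Mb on chromosome 19, 0.667 on 20, 0.432 on 16 and 0.237 on X. Chromosome 7, similar to X in length, had 0.238 per Mb, with 2484 interactions in the list against 1115 on X. The share of X was thus high in a thin list, without a high number by length. The high shares had different settings. On chromosome 20, 28 of the 43 isolated interactions lay between 25 and 32 Mb, around the centromere, where they were 41.2% of 68 interactions, and each was within 1 Mb of a gap. On the rest of the chromosome the share was 1.04% below this stretch and 0.989% above it. The stretch was chosen after its values were seen.

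Chromosome 19 kept its share away from gaps, at 5.85%, as did X with 2.90% and 16 with 2.63%, while chromosome 20 came to 0.904%. Chromosome 19 is rich in genes, and of its 40 isolated interactions 20 had a start site in a bin (50%), with 48.2% over all interactions of the chromosome. These included MKNK2 with ZNF554 (18 contacts over 765 kb) and SIGLEC7 with SIGLEC6 (19 over 390 kb), genes of sialic acid-binding receptors. On chromosome 20 4 of 43 had a start site (9.30%).

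**Figure D4:**
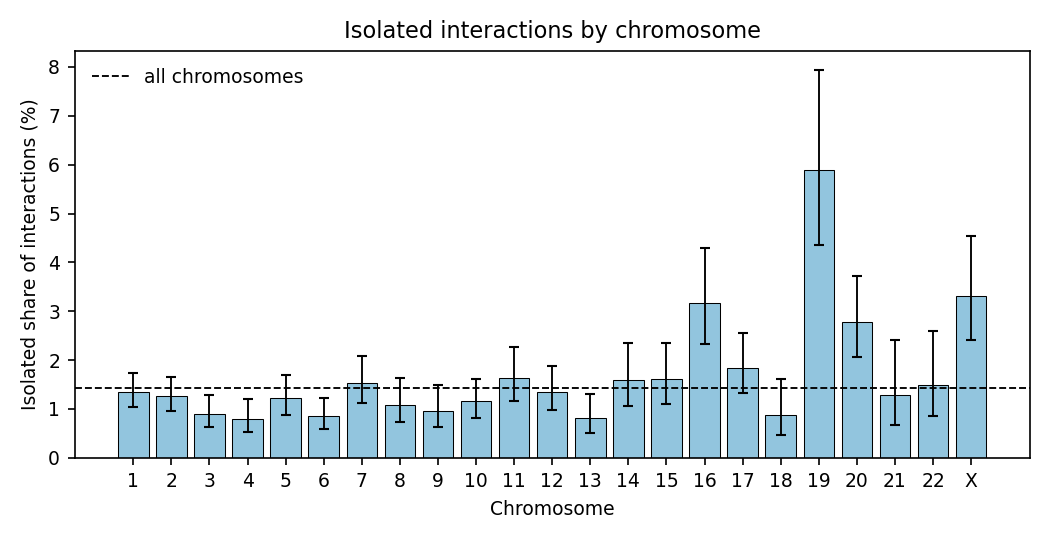
Share of the interactions of each chromosome that were isolated (y axis, %), with Wilson 95% intervals as bars and the share over all chromosomes, 1.42%, as a dashed line. Chromosome 19 stands highest at 5.90%, followed by X, 16 and 20.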

How the data were processed

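The data were 2 HiChIP samples of 1 condition, and no groups were compared. The authors trimmed the reads with Trim Galore 0.6.6, merged the replicates, aligned to hg38 with BWA-MEM, extracted pairs with pairtools without removing duplicates, called peaks with MACS2 and ran FitHiChIP on 5-kb bins for distances of 50 kb to 3 Mb (q-value under 0.01), with neighboring contacts merged afterwards. The version of FitHiChIP is not given in the sources used here. Contact counts were deposited as unnormalized counts of read pairs, so that duplicates can raise them and their Poisson intervals are too narrow. The p-values and q-values deposited by the authors come from the FitHiChIP background for distance and coverage. The deposited fraction gives, for each merged group, how many of its bin pairs were significant. The listed contact counts of the isolated interactions added up to 15319, and the depth of each replicate is not known from the merged list.

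Bins were joined to GENCODE release 44 and the hg38 sequence with Python 3.11.15, numpy 2.4.6, pandas 2.3.3 and scipy 1.17.1, with figures drawn by matplotlib 3.10.9. A bin had to hold at least 4000 known bases to enter the flanking and genome bins. Distances in bases from a bin to a named gene run to the nearer end of its gene body. Shares have Wilson, differences Newcombe and medians order-statistic 95% intervals, and no test was made, since no replicate error exists. The counting, interval and sequence functions were tested on simulated data. Members and gene lists were chosen with earlier results of these data known. Named interactions were those with the 10 largest contact counts, the 10 smallest P values, the 5 largest counts above 1 Mb, the 5 largest sums over merged neighbors, the 10 largest counts with a start site in 1 bin, in both bins and with TTACGTAA, and those with a start site of a listed gene, of which 1 is not reported here. The most remote, gene-near, sequence-sharing and chromosome 19 interactions named beside these were picked with their values in view. Alternatives changed the q-value, contact minimum, distance, neighborhood, flank, motif, start site and repeat settings.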

Additional observations from a re-analysis of the deposited data

How the results depend on the processing

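The number of isolated interactions depended on the list they were counted in. It was 701 as reported, 1392 with a q-value under 1e-05 and 1431 with at least 20 contacts, since a shorter list leaves more bins with 1 partner. It was 440 when neighboring bins within 1 bin also had to be free of other interactions and 173 within 5 bins. The mean distance was 489 kb and the mean contact count 21.9, against medians of 230 kb and 20, and the median contact count was 25 with a q-value under 1e-05. The motif share was 2.28% with TTACGTAA alone and 34.3% with 1 bin on either side kept free. Start sites of any gene were in 20.04% of anchors and within 10 kb of 36.5%. The mean G+C content was 42.9%. Protein-coding genes with a start site within 10 kb numbered 632, against 188. Interactions with shared sequence numbered 100 at 10 or more shared stretches, and 9 without the interactions near gaps, against 17. Of the settings listed at the start, 14 moved a value beyond its 95% interval or, for counts, by over 1.5 times, and 19 did not. Of 14 chosen after seeing the data 1 did, and none changed a direction. Staying within these bounds does not mean no change. Against bins 50 kb away the motif difference was 1.86 points in place of 4.73, with an interval that holds 0, and the isolated interactions numbered 942 with a q-value under 0.001 and 940 up to 1 Mb. No paired analysis was possible because the authors merged both replicates before calling interactions, and no replicate could be left out for the same reason. An isolated interaction is isolated at this threshold and this depth only. Contacts missed for lack of depth could not be counted.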
